A study of Mus musculus with 9 samples.

Results

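In semi-mature CD4 single-positive (SP4) thymocytes sorted by a reporter of T cell receptor (TCR) signaling, 93 of the 41978 genes in the expression table were chosen as early-rising. A large share of their increase from GFPlo to GFPhi thymocytes was already present in GFPmed thymocytes. Of these genes, 37 act in DNA replication, mitosis or the transcription that drives them. The others include interferon-inducible sensors, histones and regulators of activated T cells. The genes were chosen by a rule on mean log2(TPM + 1), where TPM is a transcript level scaled for gene length and library depth. A gene had to reach a mean of 5 TPM in GFPhi, to lie at least 1 log2 unit higher in GFPhi than in GFPlo, and to have its lowest GFPhi sample above its highest GFPlo sample. Its progress, which is the GFPmed minus GFPlo difference divided by the GFPhi minus GFPlo difference, had to be at least 0.4. Genes of several named families, among them Nr4a, Egr, Bcl, Tnf, Dusp, Cd, Il and Ikzf, predicted genes and antigen receptor segments of the Tra and Trb loci were left out by symbol. Before that step 503 genes met the level, rise and separation parts of the rule. Of these, 218 were left out by symbol, 113 of them with a progress of at least 0.4. Without the level, separation and symbol parts, 708 of 1281 tested genes that rose at least 1 log2 unit reached that progress. Because the rule used all 3 contrasts between the groups, the values below describe the chosen genes and carry no test.

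The mice carried the Nur77-eGFP BAC transgene, in which GFP is driven by the regulatory sequences of Nr4a1, and all 9 samples share it. Live CD25- CD69+ CD24+ CD4+ CD8- thymocytes were divided into GFPlo, GFPmed and GFPhi cells, each about 10% of the GFP distribution, with 3 biological replicates per group. The labels give CD24+ for the gate, while the study's text gives CD24lo in one place and CD24hi in another. Per the study's methods, mice other than chimeras were of both sexes and between 3 and 10 weeks of age, and the labels name no treatment. Since GFP itself defined the groups, a group is a sorted part of a polyclonal population and not a set of clones with known affinity. RNA came from bulk samples, so fewer cells of a type and less RNA per cell cannot be told apart.

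Cell division is driven by waves of transcription. E2F factors induce the genes of DNA replication as cells enter S phase, and the MuvB complex with B-MYB and FOXM1 later induces the genes of G2 phase and mitosis through promoter elements named CHR (cell cycle genes homology region) and CCAAT boxes, the sites of NF-Y. Developing thymocytes divide extensively before selection, and semi-mature SP4 thymocytes are mostly non-dividing cells that then regain the ability to proliferate. Type I interferon acts on thymocytes in the medulla and induces sensor and effector families such as the PYHIN (Ifi200), Schlafen and guanylate-binding proteins. The nuclear receptor Nr4a1 (Nur77), from which the reporter derives, is induced by TCR signaling.

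Promoter windows of 300 bases, from 250 bases before to 50 after each annotated start, were matched by symbol to RefSeq (GRCm38.p6) for 61 of the 93 genes. The first windows are shown because the mitotic genes Ube2c and Mki67 and the repressor E2f8 hold both elements of the G2/M program, the CHR letters TTTGAA and the NF-Y letters CCAAT, and the S phase gene Pclaf holds an E2F sequence, GGCGGGAA. Capitals mark the CHR letters, the NF-Y letters and the E2F letters (GGCGGGAA or TTTCGCGC or TTTGGCGC) on either strand, and all sequences run 5′ to 3′ on the strand of the gene.
Ube2c, chr2:164769679-164769978, plus strand: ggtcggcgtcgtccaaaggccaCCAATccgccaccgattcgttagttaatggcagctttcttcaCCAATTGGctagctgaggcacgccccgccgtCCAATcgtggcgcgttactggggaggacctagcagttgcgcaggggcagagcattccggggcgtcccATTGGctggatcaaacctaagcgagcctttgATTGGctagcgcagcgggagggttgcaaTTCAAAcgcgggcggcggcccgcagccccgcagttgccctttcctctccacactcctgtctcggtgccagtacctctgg
Mki67, chr7:135716330-135716629, minus strand: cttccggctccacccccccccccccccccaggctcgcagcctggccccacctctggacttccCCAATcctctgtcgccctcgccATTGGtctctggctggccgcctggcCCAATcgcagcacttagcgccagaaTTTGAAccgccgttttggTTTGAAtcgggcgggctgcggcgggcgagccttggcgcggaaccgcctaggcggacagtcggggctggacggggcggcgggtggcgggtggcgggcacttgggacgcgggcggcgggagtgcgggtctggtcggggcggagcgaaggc
E2f8, chr7:48881547-48881846, minus strand: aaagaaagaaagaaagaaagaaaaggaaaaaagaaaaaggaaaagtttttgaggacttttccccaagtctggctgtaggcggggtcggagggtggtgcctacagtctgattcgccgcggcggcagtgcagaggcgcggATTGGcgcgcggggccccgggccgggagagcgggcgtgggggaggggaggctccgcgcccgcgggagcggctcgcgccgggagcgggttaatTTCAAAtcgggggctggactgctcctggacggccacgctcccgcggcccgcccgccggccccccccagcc
Pclaf, chr9:65890073-65890372, plus strand: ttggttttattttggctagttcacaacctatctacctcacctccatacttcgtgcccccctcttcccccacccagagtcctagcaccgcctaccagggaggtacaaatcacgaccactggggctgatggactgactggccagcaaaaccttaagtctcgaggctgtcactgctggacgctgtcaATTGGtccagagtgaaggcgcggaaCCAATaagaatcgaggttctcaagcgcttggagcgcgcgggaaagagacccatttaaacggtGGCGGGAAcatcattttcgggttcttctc
The next windows belong to the PYHIN gene Ifi206 and the Schlafen gene Slfn5 and are shown for the letters of the interferon response, GAAANNGAA. Capitals mark GAAANNGAA or the letters for AP-1 (TGANTCA) or for NF-kB (GGGNNTTCC) on either strand.
Ifi206, chr1:173491269-173491568, minus strand: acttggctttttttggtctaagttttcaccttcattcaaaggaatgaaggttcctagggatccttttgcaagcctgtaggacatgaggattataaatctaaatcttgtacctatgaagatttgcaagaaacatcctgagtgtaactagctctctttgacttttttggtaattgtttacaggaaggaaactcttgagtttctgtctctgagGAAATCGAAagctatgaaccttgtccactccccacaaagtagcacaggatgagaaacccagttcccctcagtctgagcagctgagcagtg
Slfn5, chr11:82951852-82952151, plus strand: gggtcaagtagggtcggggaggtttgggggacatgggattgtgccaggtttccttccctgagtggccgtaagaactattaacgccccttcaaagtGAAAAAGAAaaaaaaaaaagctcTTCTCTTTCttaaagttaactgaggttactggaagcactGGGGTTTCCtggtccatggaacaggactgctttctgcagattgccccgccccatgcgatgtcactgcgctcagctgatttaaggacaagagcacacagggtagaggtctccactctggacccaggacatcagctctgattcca

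The CHR and NF-Y letters were both present in the promoters of 44.8% of the 29 early-rising cell-cycle genes with a window, against 8.05% of 13024 genes tested and 13.7% of 146 later-rising genes. They were in 15.4% of the 26 early-rising promoters outside the cell-cycle and interferon groups. The later-rising genes were not divided by role. Whether the letters go with the early rise or with the cell-cycle role was therefore not tested. Taken singly, TTTGAA was in 55.2% of the cell-cycle promoters and 17.2% of those of all genes tested, and CCAAT in 72.4% and 42.4%. TTTGAA was also in 4 of the 6 promoters of interferon and sensing genes (66.7%) and in 24.0% of those of later-rising genes. In the cell-cycle genes 14 of 20 TTTGAA matches (70.0%) began within 50 bases of the annotated start, compared with 23.1% of the 2680 matches in all genes tested. An E2F sequence (GGCGGGAA, TTTCGCGC or TTTGGCGC, which can overlap each other) was in 4 of the 29 cell-cycle promoters (13.8%) and 5.18% of those of all genes tested. It was about as frequent in the 26 early-rising promoters outside the cell-cycle and interferon groups (3, or 11.5%). GAAANNGAA was in 5 of the 6 interferon and sensing genes with a window (83.3%), against 9.13% of genes tested and 17.8% of later-rising genes. Here too the later-rising genes were not divided by role. The NR4A letters AAAGGTCA were in 1.64% of the 61 early-rising promoters and 1.49% of those of all genes tested. Of the other letters searched, TGANTCA was in 8.2% and 7.63%, GGGNNTTCC in 4.92% and 7.74%, and the forkhead letters GTAAACA in 3.28% and 3.22%. Each motif was searched on both strands, a match is a description of the letters only, and genes with several starts counted once if any window held the letters.

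Reads per sample, solved from the TPM and the authors' group means, ran from 7465552 to 14943774. As a check of the sort, Nr4a1 was at 213, 187 and 251 TPM in the 3 GFPlo samples, 366, 351 and 406 in GFPmed and 767, 917 and 836 in GFPhi, with no overlap between groups. Its own progress was 0.40, but the rule left it out by symbol. The TPM divisor was the genomic span of the transcripts rather than their exonic length, so TPM values are compared here between samples of a gene and not between genes.

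The 93 early-rising genes were higher in GFPhi than in GFPlo by 1.00 to 4.34 log2 units, with a median of 1.59, and their progress ran from 0.40 to 1.26 with a median of 0.525. A further 192 genes met every other part of the rule with a progress below 0.4. These later-rising genes had the same median rise, 1.59 log2 units, and a median progress of 0.25. Of the 93 early-rising genes, 52 had GFPlo, GFPmed and GFPhi samples in order with no overlap, as did 92 of the 192 later-rising genes. The share of the 30693 genes tested was 1.67%, but the rule itself required GFPhi to be separate from GFPlo. In 16 early-rising genes GFPmed was separate only from GFPlo, in 9 only from GFPhi, and in 16 from neither. At the threshold, Nsmf (progress 0.402), H4c2 (0.403) and Igsf23 (0.416) lay just inside, and H2ax (0.3996), Spag5 (0.398) and Ccnb2 (0.398) just outside. The scale sets part of this: on linear TPM the median progress of the same genes was 0.38, and 41 of 93 reached 0.4. A linear model fitted to all genes (limma, adjusted p by Benjamini-Hochberg, at least 1 log2 unit) called 65 of the early-rising genes higher in GFPhi than in GFPlo (1.26% of genes tested), 2 in GFPmed over GFPlo (0.0554%) and 3 in GFPhi over GFPmed (0.541%). No early-rising gene was called lower in any contrast (0.404%, 0.00326% and 0.15% of genes tested). The rule used the same contrasts, so nothing is read from these counts. The 2 called in GFPmed over GFPlo were Gadd45b and Rnu11, and the reads of Rnu11 could not be solved. The 65 became 40 without GFPhi replicate 3, and the 2 became 0 without any one of GFPlo replicates 2 and 3 or the GFPmed replicates.

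The early-rising genes were not equally well measured. There were 68 genes with a mean of at least 20 reads over the 9 samples, and these had a median progress of 0.50 with a highest value of 0.77. All 52 genes in order were among them, and 61 of the 65 called in GFPhi over GFPlo. The other 25 had fewer reads, with at most 44 in any sample, or reads that could not be solved. Their median progress was 0.69, none was in order, and the 4 genes whose mean log2(TPM + 1) was higher in GFPmed than in GFPhi were among them, as were the 7 genes with a higher mean TPM in GFPmed.

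**Figure D1:**
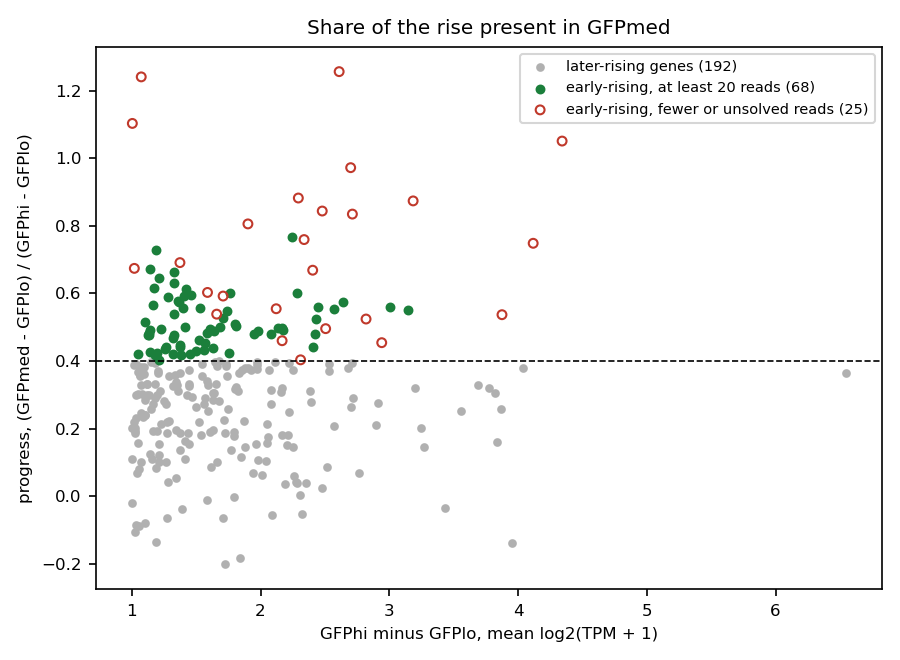
Progress of each gene (y axis, GFPmed minus GFPlo divided by GFPhi minus GFPlo, means of log2(TPM + 1)) against its GFPhi minus GFPlo difference (x axis, log2 units) for 68 early-rising genes with at least 20 reads on average (filled green), 25 with fewer or unsolved reads (open red) and 192 later-rising genes (grey). The dashed line is the threshold of 0.4, and the values above 0.77 all belong to genes with few or unsolved reads.

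DNA replication and S phase were represented by 9 genes, with a median progress of 0.58, and 5 of them were in order with no overlap. Rrm2, the small subunit of ribonucleotide reductase, which makes deoxynucleotides, was at 19.5, 22.5 and 25.3 TPM in GFPlo, 68.4, 44.0 and 77.0 in GFPmed, and 111, 172 and 136 in GFPhi. The 3 groups did not overlap, the GFPhi mean was 6.22 times the GFPlo mean, and progress was 0.55. Pclaf, a partner of the sliding clamp PCNA, was at 4.39, 8.67 and 7.57 TPM in GFPlo, 20.6, 13.5 and 23.6 in GFPmed, and 27.4, 42.3 and 40.7 in GFPhi. Its groups were in order as well (5.35-fold, progress 0.60). Pole, the catalytic subunit of the leading-strand DNA polymerase epsilon, was at 9.10, 5.94 and 5.12 TPM in GFPlo, 12.3, 11.8 and 11.4 in GFPmed, and 16.0, 14.9 and 16.0 in GFPhi, with a progress of 0.67. Chtf18, part of an alternative clamp loader, had the highest progress of the group, 0.73. Its values were 7.11, 10.2 and 9.59 TPM in GFPlo, 25.7, 14.2 and 13.3 in GFPmed, and 12, 26.2 and 31.2 in GFPhi, so GFPmed replicate 1 lay above GFPhi replicate 1. The remaining members were the thymidine kinase Tk1 (3.81-fold, progress 0.50), the cohesin acetyltransferase Esco2 (3.05-fold, 0.43), the recombination factors Rad51ap1 (2.44-fold, 0.56) and Fignl1 (2.75-fold, 0.66), and the endonuclease Ankle1 (2.73-fold, 0.58).

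Mitosis and chromosome segregation formed the largest group, with 25 genes, a median progress of 0.49, and 21 genes in order. Ccnb1, the cyclin B1 that activates CDK1 for entry into mitosis, was at 1.72, 4.57 and 1.21 TPM in GFPlo, 12.2, 7.41 and 9.98 in GFPmed, and 23.5, 34.9 and 25.6 in GFPhi. It had the largest rise of the group, 11.2-fold, and a progress of 0.55. Ube2c, the ubiquitin-conjugating enzyme of the anaphase-promoting complex, was at 0.641, 3.39 and 2.35 TPM in GFPlo, 10.7, 5.07 and 10.4 in GFPmed, and 14.8, 28.2 and 26.1 in GFPhi, in order and 10.8-fold higher in GFPhi. Ccna2, the cyclin A2 of S phase and G2, was at 14.4, 21.7 and 21.7 TPM in GFPlo, 40.9, 36.6 and 35.3 in GFPmed, and 54.7, 66.4 and 76.8 in GFPhi. Top2a, the topoisomerase that untangles sister chromatids, was at 25.2, 30.8 and 33.1 TPM in GFPlo, 79.4, 46.4 and 58.2 in GFPmed, and 106, 143 and 139 in GFPhi. In both genes the groups were separate. Nek2, a kinase of centrosome separation, had the highest progress, 0.77, and overlapping GFPmed and GFPhi values. It was at 1.11, 2.47 and 1.29 TPM in GFPlo, 8.19, 7.97 and 6.26 in GFPmed, and 6.34, 17.1 and 12.3 in GFPhi. Ccnf, the cyclin F of an SCF ubiquitin ligase, was at 5.13, 5.77 and 4.10 TPM in GFPlo, 10.3, 7.47 and 11.6 in GFPmed, and 12.3, 15.7 and 14.2 in GFPhi, in order with a progress of 0.63.

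The other mitotic genes act at the kinetochore, at the spindle and in the cohesion and condensation of chromosomes. At the kinetochore, Ndc80, Spc24 and Spc25 of the microtubule-binding Ndc80 complex had a progress of 0.42, 0.60 and 0.48, Dsn1 of the Mis12 complex 0.48, and the centromere proteins Cenpf and Cenpm 0.51 and 0.47. Aurkb and Birc5 (survivin) of the chromosomal passenger complex were 5.57- and 5.58-fold higher in GFPhi, with a progress of 0.44 and 0.49. Of the spindle proteins, the motors Kif11, Kif22 and Kif2c were 3.4-, 2.93- and 2.87-fold higher in GFPhi, the spindle assembly factor Tpx2 3.96-fold and Tacc3 2.83-fold. Bub1b of the spindle checkpoint, the cohesin protector Sgo1 and the cohesin-cleaving separase Espl1 had a progress of 0.43, 0.49 and 0.45. The condensin subunit Ncapg (5.56-fold), the kinase Pbk (10.4-fold) and the proliferation antigen Mki67 (6.90-fold) completed the group. Mki67, given in full because its promoter is shown above, was at 2.47, 3.62 and 3.29 TPM in GFPlo, 13.3, 7.06 and 9.20 in GFPmed, and 17.5, 25.9 and 21.3 in GFPhi.

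Of the transcription factors that act in these programs, 3 rose early, each in order with no overlap and each with a progress near 0.5. Foxm1, the activator of G2/M genes, was at 5.60, 7.49 and 4.13 TPM in GFPlo, 14.4, 14.5 and 10.1 in GFPmed, and 22.9, 32.5 and 29.5 in GFPhi. E2f8, an atypical E2F that represses E2F targets, was at 3.4, 3.01 and 2.97 TPM in GFPlo, 7.03, 4.92 and 6.70 in GFPmed, and 10.6, 13.8 and 10.5 in GFPhi. E2f2, an activating E2F, was at 5.67, 4.75 and 4.41 TPM in GFPlo, 9.41, 7.72 and 6.01 in GFPmed, and 9.99, 13.8 and 12.3 in GFPhi. Together, 29 of the 37 cell-cycle genes were in order.

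**Figure D2:**
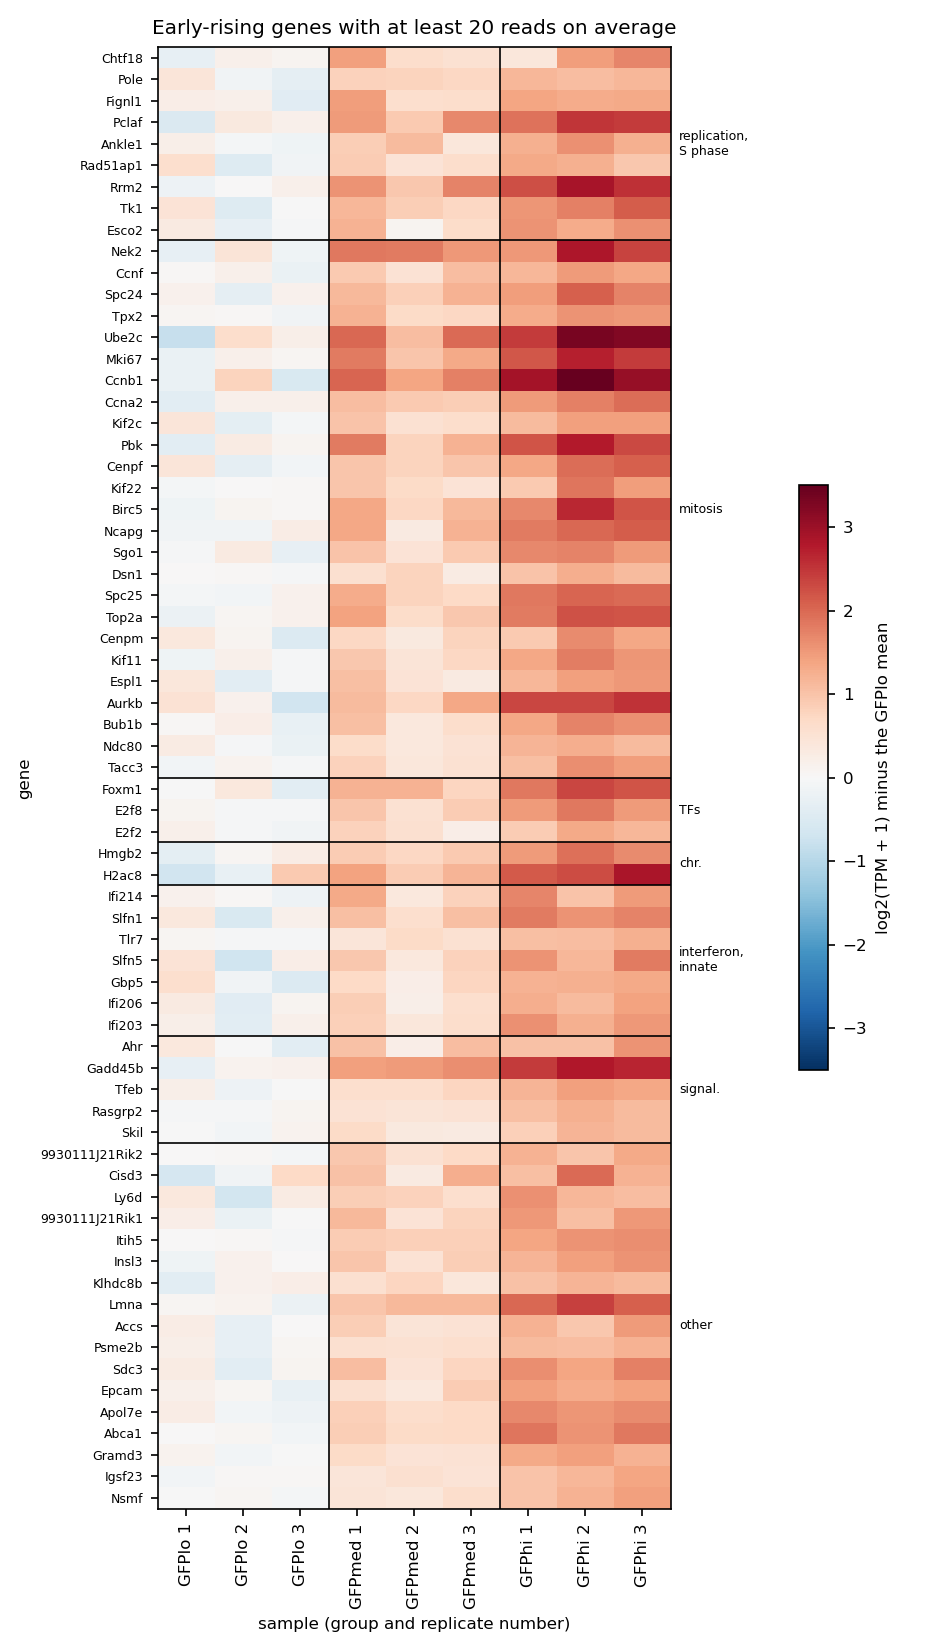
Values of the 68 early-rising genes with at least 20 reads on average in each of the 9 samples, as log2(TPM + 1) minus the mean of the 3 GFPlo samples of the gene (colour scale), grouped by role (TFs, cell-cycle transcription factors; chr., histones and chromatin; signal., signalling). The GFPmed columns lie between GFPlo and GFPhi for most genes, with GFPmed replicate 1 darkest in the cell-cycle rows.

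Standard cell-cycle lists hold early-rising genes and many others. The 43 genes of an S phase list summed to 1812 ± 28.2 reads-per-million units (RPM) in GFPlo, 2147 ± 157 in GFPmed and 2409 ± 89.5 in GFPhi (SD, n = 3 each), which places GFPmed at 0.56 of the linear rise. The 54 genes of a G2/M list summed to 2895 ± 12.1, 3252 ± 153 and 4411 ± 249 RPM, with GFPmed at 0.24 of the linear rise. Such sums weigh abundant genes most. Gene by gene on the log2 scale, the median progress was 0.56 for the 5 S phase genes that rose at least 1 log2 unit. For the 26 such G2/M genes it was 0.43, and 15 of them reached 0.4. Without the early-rising genes the sums were 1787 ± 28.8, 2089 ± 147 and 2289 ± 78.8 for S phase, where GFPmed replicate 1 lay above GFPhi replicate 1, and 2743 ± 10.5, 2944 ± 99.8 and 3796 ± 166 for G2/M, where the groups did not overlap. Of the S phase genes 3 passed the limma test as higher in GFPhi than in GFPlo and none as lower, and their median difference was 0.35 log2 units against -0.09 for all genes tested. Of the G2/M genes 25 were higher and 1 lower, with a median of 0.98, and 13 of them were early-rising and 8 later-rising. The 25 became 13 without GFPhi replicate 3 and 15 without GFPlo replicate 3. For this and the following lists, the shares of all genes tested were 1.26% called higher and 0.404% called lower. Early-rising genes were chosen for their rise from GFPlo to GFPhi, so their calls in these lists are not a separate result. Among the S phase genes that were not early-rising, the licensing factor Cdc6 changed most (log2FC = 1.62, SE = 0.21, limma adjusted p = 0.0058), with a progress of 0.58, and its symbol was among those left out. The licensing inhibitor Gmnn had a log2FC of 0.80. Smc4, the condensin ATPase, rose most (log2FC = 3.20, SE = 0.08, limma adjusted p = 6.6e-06), with a progress of 0.32. Cdc20, the activator of the anaphase-promoting complex, also rose (log2FC = 2.31, SE = 0.26, limma adjusted p = 0.0031), and its progress of 0.47 met the threshold while its symbol was among those left out. Kif23, a kinesin of cytokinesis, fell (log2FC = -2.22, SE = 0.12, limma adjusted p = 0.00012), from 104 ± 2.95 TPM in GFPlo to 69.2 ± 7.06 in GFPmed and 21.6 ± 3.27 in GFPhi (SD, n = 3 each).

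**Figure D3:**
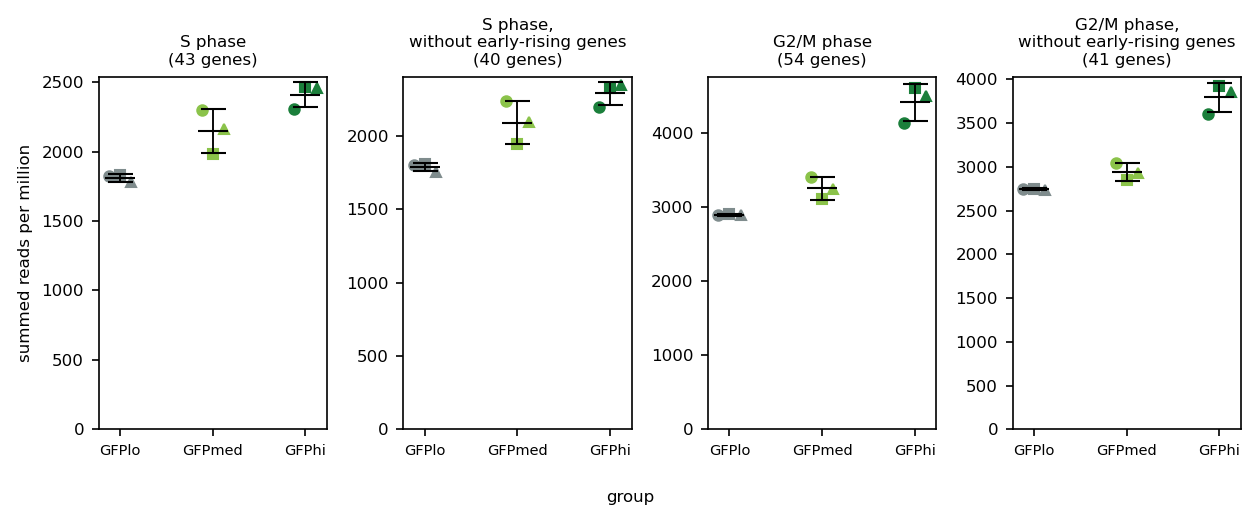
Summed RPM (y axis, from 0) of the S phase and G2/M lists in each sample, with all their genes and without the early-rising genes. Circles, squares and triangles are replicates 1, 2 and 3, and bars are the mean and SD of 3 samples. In GFPmed the sums of all S phase genes were at 0.56 and those of all G2/M genes at 0.24 of the linear rise.

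Smaller lists resolved this further, with the same limit that the early-rising genes in them had been chosen for a rise in GFPhi. In the kinetochore network (KMN) 4 of 10 genes were called higher in GFPhi, all of them early-rising, while Knl1 (log2FC = 0.75) and Nuf2 (0.53) did not pass and Mis12 had a log2FC of -0.40. Without GFPhi replicate 3, 2 kinetochore genes were called. In the chromosomal passenger complex 3 of 4 were called, the third being Cdca8 (log2FC = 1.02), and Incenp had a log2FC of 0.94, just under the fold required. In the replisome 1 of 31 genes tested was called, Pole, although the 32 listed genes summed to 1515 ± 33.1, 1753 ± 71.4 and 1939 ± 79.6 RPM in order (SD, n = 3 each). Mcm3 and Mcm6, subunits of the replicative helicase, had log2FC values of 0.74 and 0.70. Cdc45, which activates the helicase, had 1.02 with a limma adjusted p of 0.052. It met the numeric parts of the rule, with a progress of 0.68, but its symbol was among those left out. Of 17 E2F, MuvB and FOXM1 regulators 3 were called, the early-rising factors, and E2f7, E2f1 and Mybl2 had log2FC values of 0.79, 0.75 and 0.53. Of 16 G1/S regulators tested, 2 were called, and 1 under several other settings, among them median-of-ratios scaling and the replicate block. These were cyclin E1 (Ccne1, log2FC = 1.88, progress 0.38) and the CDK4/6 inhibitor Cdkn2c (log2FC = 1.41, limma adjusted p = 0.049), whose call was the one lost. Cdkn2c also met the numeric parts of the rule, with a progress of 0.54, but its symbol was left out. The inhibitor Cdkn2d did not reach the fold required (0.73).

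Histone and chromatin genes numbered 7. Hmgb2, a chromatin protein of dividing cells, was the best measured, at 84.2, 112 and 129 TPM in GFPlo, 199, 176 and 202 in GFPmed, and 300, 406 and 336 in GFPhi, in order with a progress of 0.50. The other 6 were replication-dependent core histones, whose transcripts mostly lack poly(A) tails and which have near-identical copies, so their reads are uncertain. H2ac8 was at 4.34, 6.10 and 15.2 TPM in GFPlo, 21.5, 14.6 and 18.4 in GFPmed, and 36.5, 40.2 and 60.1 in GFPhi, so that GFPlo replicate 3 reached the GFPmed range. Hist1h2ao was at 1.59, 2.56 and 15.3 TPM in GFPlo, 12.4, 5.37 and 22.3 in GFPmed, and 24.8, 26.1 and 38.5 in GFPhi. Hist1h2ap was at 1.59, 1.27 and 1.39 TPM in GFPlo, 3.30, 13.4 and 14.2 in GFPmed, and 1.97, 9.03 and 54.4 in GFPhi. For H2bc11 the values were 1.65, 1.33 and 2.89 TPM in GFPlo, 8.59, 6.96 and 6.59 in GFPmed, and 9.24, 7.05 and 14.2 in GFPhi, from 5.44 reads per sample on average. The GFPmed and GFPhi samples of H2bc11 and Hist1h2ap overlapped. H2ac4 (3 reads on average) and H4c2 (2.22) were at 0 in 1 or more samples. The core histone genes lie on chromosome 13. Among them H2ac8, H2ac4, H4c2, Hist1h2ao and Hist1h2ap each overlap a gene on the other strand, which the unstranded libraries cannot separate. The same limit holds for early-rising genes of other groups, among them Pclaf, Sdc3 and Apol7e. Within each group replicate 3 was the highest sample for 5, 5 and 6 of the 7 genes in GFPlo, GFPmed and GFPhi.

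Interferon-inducible and innate sensing genes numbered 7, with a median progress of 0.46, and 3 of them were in order with no overlap. Slfn1, a Schlafen protein that restrains lymphocyte growth, was at 85.9, 45.7 and 75.5 TPM in GFPlo, 140, 100 and 141 in GFPmed, and 240, 199 and 225 in GFPhi, in order with no overlap. Slfn5, its neighbour 152008 bases away on chromosome 11, was at 86.1, 37.7 and 72.7 TPM in GFPlo, 119, 80.1 and 108 in GFPmed, and 186, 140 and 221 in GFPhi. GFPmed replicate 2 of Slfn5 lay below GFPlo replicate 1. Ifi214, of the PYHIN family of DNA sensors, was at 4.47, 4.08 and 3.37 TPM in GFPlo, 11.4, 5.42 and 7.65 in GFPmed, and 15.3, 8.85 and 13.0 in GFPhi, with the highest progress of the group, 0.59. Ifi206 (progress 0.44, 2.38-fold) and Ifi203 (0.42, 2.83-fold) are of the same family and lie with Ifi214 on chromosome 1, from 173468485 to 173942672. Gbp5, a guanylate-binding protein, had a progress of 0.44, and Tlr7, the endosomal receptor for single-stranded RNA, 0.48. Replicates moved together in this group: GFPlo replicate 1 was the highest GFPlo sample for 7 of 7 genes, and replicate 2 was the lowest of its group for 5, 6 and 5 of 7 in GFPlo, GFPmed and GFPhi. Ifi203 overlaps Mndal on the same strand and Slfn5 overlaps an antisense gene, and PYHIN and Schlafen genes have close relatives, so reads of these genes are uncertain.

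A list of 38 interferon-stimulated genes held no early-rising gene, 4 later-rising genes and 1 called gene, against 4 called with a replicate block and 4 with limma-voom. That gene was Ifi27l2a (log2FC = 2.16, SE = 0.27, limma adjusted p = 0.0048), with a progress of 0.31. The list summed to 3399, 2555 and 3144 RPM in the 3 GFPlo samples, 3915, 2908 and 3796 in GFPmed, and 5095, 3998 and 4965 in GFPhi. Replicate 2 was lowest in every group and the groups overlapped, while within each replicate number the sums were in order from GFPlo to GFPhi. Ifit3 and Ifit3b had log2FC values of 2.17 and 1.64 with limma adjusted p of 0.086 and 0.17. In the PYHIN family 3 of 10 genes tested were called higher. These were the 3 early-rising ones, which had been chosen for this rise, and Ifi213, Mndal and Ifi209 had log2FC values of 1.55, 0.88 and 0.71. In the Schlafen family 3 of 8 were called, of which Slfn8 (log2FC = 1.05, progress 0.37) was later-rising, and Slfn2 and Slfn9 had log2FC values of 0.63 and -0.43. Of 11 guanylate-binding proteins 2 were called. These were Gbp10 (log2FC = 2.71, progress 0.39) and Gbp6 (1.29, progress 0.36), whereas Gbp9 had a log2FC of 0.60. Without GFPhi replicates 1 or 3 or GFPlo replicates 2 or 3, taken singly, each of these 3 families had 1 called gene, and the Schlafen family also without any one GFPmed replicate and the guanylate-binding proteins without GFPmed replicate 3. The 13 PYHIN genes in the table summed to 665 ± 98.5, 849 ± 146 and 1267 ± 159 RPM and the Schlafen genes to 588 ± 90.7, 769 ± 81.1 and 1131 ± 109 (SD, n = 3 each).

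Among signalling and transcription genes of activated T cells, Gadd45b had the largest rise. Gadd45b, a stress- and TCR-inducible activator of p38 signaling, was at 16.6, 22.5 and 22.8 TPM in GFPlo, 57.2, 58.7 and 65.6 in GFPmed, and 116, 148 and 135 in GFPhi. Its groups were far apart (6.46-fold, progress 0.58), and it was called in all 3 contrasts. Ahr, the ligand-activated aryl hydrocarbon receptor, was at 2.40, 1.63 and 1.04 TPM in GFPlo, 4.36, 2.07 and 4.60 in GFPmed, and 4.37, 4.33 and 6.84 in GFPhi, so that GFPmed overlapped both other groups. Tfeb, a regulator of lysosome genes, was at 2.15, 1.41 and 1.74 TPM in GFPlo, 3.12, 3.1 and 3.6 in GFPmed, and 5.23, 6.5 and 6.04 in GFPhi. Rasgrp2, an activator of the GTPase Rap1, was at 95.5, 95.6 and 107 TPM in GFPlo, 142, 135 and 142 in GFPmed, and 207, 237 and 217 in GFPhi. Skil, a SMAD corepressor, was 2.10-fold higher in GFPhi with a progress of 0.42, and in Tfeb, Rasgrp2 and Skil the groups were in order.

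In a list of 38 tested genes of the immediate response to the antigen receptor, 11 were called higher in GFPhi and 1 lower. The 11 called genes became 7, and the 1 lower became 0, without GFPlo replicate 2. Gadd45b and Skil were early-rising under the rule, which left out by symbol the Nr4a, Egr, Bcl, Tnf, Dusp and Cd genes of this list. Of its 11 genes that rose at least 1 log2 unit, 5 reached a progress of 0.4. Bcl2l11, the proapoptotic BIM, rose most (log2FC = 3.04, SE = 0.12, limma adjusted p = 3.2e-05) and also rose in GFPmed over GFPlo (log2FC = 1.83, limma adjusted p = 0.0056). Its progress was 0.60, but the rule left its symbol out. Trib1, a pseudokinase, and Nr4a3, a paralog of Nr4a1, had log2FC values of 2.53 and 1.97 with a progress of 0.39 and 0.37. In the AHR list Tiparp and Arnt had log2FC values of -0.57 and -0.04, and in the SKI/SMAD list Smad7, an inhibitor of TGF-beta signaling, was called higher (1.98, progress 0.38), while Ski (1.28, and 0.47 without GFPhi replicate 2) and Smurf2 (0.58) were not. In the list of sterol efflux genes controlled by LXR, Abca1 was the called gene of 7 tested, and Lpcat3, Abcg1 and Apoe had log2FC values of -0.30, 0.30 and -0.22.

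The remaining 37 genes had no shared role, and 17 of them had at least 20 reads on average. Psme2b, listed as a relative of the proteasome activator subunit, was at 124, 88.0 and 112 TPM in GFPlo, 158, 155 and 161 in GFPmed, and 232, 228 and 251 in GFPhi. Next to it on chromosome 11 (48945354 to 49051242) lie 9930111J21Rik1 and 9930111J21Rik2, which had a progress of 0.58 and 0.61. Psme2b and 9930111J21Rik1 overlap by 41 bases on the same strand, and both lie within Gm12185 on that strand. Reads of these genes are therefore not securely separated. Lmna, which encodes lamins A and C of the nuclear envelope, was at 6.88, 7.16 and 5.47 TPM in GFPlo, 13.7, 15.3 and 15.3 in GFPmed, and 29.0, 38.5 and 30.9 in GFPhi. Abca1, the cholesterol exporter, was at 2.91, 3.07 and 2.58 TPM in GFPlo, 6, 5.11 and 5.29 in GFPmed, and 13.0, 10.4 and 12.8 in GFPhi. These 2 genes, chosen for display after their values were seen, were also called in GFPhi over GFPmed, as was Gadd45b. These 3 calls became 0 with median-of-ratios scaling, without GFPhi replicate 3 or without GFPmed replicate 2, and 1 without GFPmed replicate 1 or 3, while limma-voom called 15 early-rising genes. Both were in order, as were the heparan sulfate proteoglycan Sdc3 (3.24-fold), the adhesion molecule Epcam (3.14-fold), the apolipoprotein L gene Apol7e (3.25-fold), Itih5 of the inter-alpha-trypsin inhibitor heavy chains (4.4-fold), the GRAM domain gene Gramd3 (3.39-fold), the immunoglobulin superfamily gene Igsf23 (2.42-fold), the kelch gene Klhdc8b (2.18-fold), the synapse-to-nucleus factor Nsmf (2.41-fold), the lymphocyte surface protein Ly6d (2.58-fold) and Accs (2.62-fold). Cisd3, an iron-sulfur protein of mitochondria, had GFPmed values that overlapped both other groups, with a progress of 0.61. Insl3, a relaxin-like hormone gene (2.89-fold), lies wholly within Jak3 on the same strand, and Jak3 itself went from 59.8 to 127 TPM between GFPlo and GFPhi, so reads of the 2 genes are not securely separated.

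The other 20 genes of this group rested on few or unsolved reads. Rnu11, an RNA of the minor spliceosome, was listed at 0 in the 3 GFPlo samples, at 11.9, 9.61 and 5.69 TPM in GFPmed and at 3.55, 4.06 and 8.90 in GFPhi. Its reads could not be solved, although it was called in GFPmed over GFPlo. Mir7056 was also listed at 0 in GFPlo, at 40.5, 21.8 and 12.9 TPM in GFPmed and at 72.5, 9.22 and 10.1 in GFPhi, from 2.22 reads per sample on average. Mir201 was at 0 in GFPlo, at 24.1, 0 and 23.1 TPM in GFPmed and at 28.8, 16.5 and 9.03 in GFPhi. For genes this short, a single read is worth many TPM. The ribosomal pseudogene Rpl28-ps2 was at 8.28, 4.43 and 4.82 TPM in GFPlo, 12.2, 20.9 and 15.2 in GFPmed, and 17.2, 9.82 and 12.9 in GFPhi, with GFPmed and GFPhi overlapping. The mitochondrial serine tRNA mt-Ts1 was at 44.3, 26.7 and 38.7 TPM in GFPlo, 213, 46.7 and 55.3 in GFPmed, and 179, 118 and 190 in GFPhi, so GFPmed replicate 1 stood far above the other GFPmed samples. Besides these, the genes were the microRNA genes Mir7237, Mir294, Mir7044 and Mir6379, the ribosomal 5S gene n-R5s26, the pseudogene Rps15a-ps7, the globin Hbb-bs, the keratin-associated Krtap16-3, the photoreceptor gene Rom1, Mid1ip1 of lipid synthesis, and the immunoglobulin segments Igkv4-91, Igkv6-32, Ighv3-6, Ighv11-2 and Ighv1-62. Mir7237, Mir7056 and Mir7044 lie within other genes on the same strand. The immunoglobulin segments Igkv4-91 and Ighv11-2 were highest in GFPmed replicate 3 (27.8 and 14.7 TPM) and GFPhi replicate 3 (26.1 and 22.9 TPM). The 8 B cell markers summed to 44.5 ± 11.6, 45.0 ± 2.69 and 39.3 ± 20.6 RPM in GFPlo, GFPmed and GFPhi (SD, n = 3 each), with no order.

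The GFPmed samples did not contribute equally. With the GFPlo mean of each gene set to 0 and the GFPhi mean to 1, the median position of the 93 genes was 0.65 in GFPmed replicate 1, 0.38 in replicate 2 and 0.54 in replicate 3. For the 192 later-rising genes it was 0.30, 0.20 and 0.23. The 37 cell-cycle genes were at 0.67, 0.40 and 0.50, and GFPmed replicate 1 was the highest GFPmed sample for 27 of them and replicate 2 the lowest for 25. Their GFPhi samples differed as well, with replicate 2 highest for 26 and replicate 1 lowest for 28. Interferon and sensing genes were at 0.62, 0.27 and 0.53. In histone genes replicate 3 was highest, at 0.85, and in signalling genes replicates 1 and 3 were at 0.55 and 0.56. Replicate 1 of GFPmed was also the most deeply read sample, with 14943774 reads, and the part of depth in its position was not tested. Without GFPmed replicate 1 the rule chose 75 genes, of which 68 were among the 93.

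**Figure D4:**
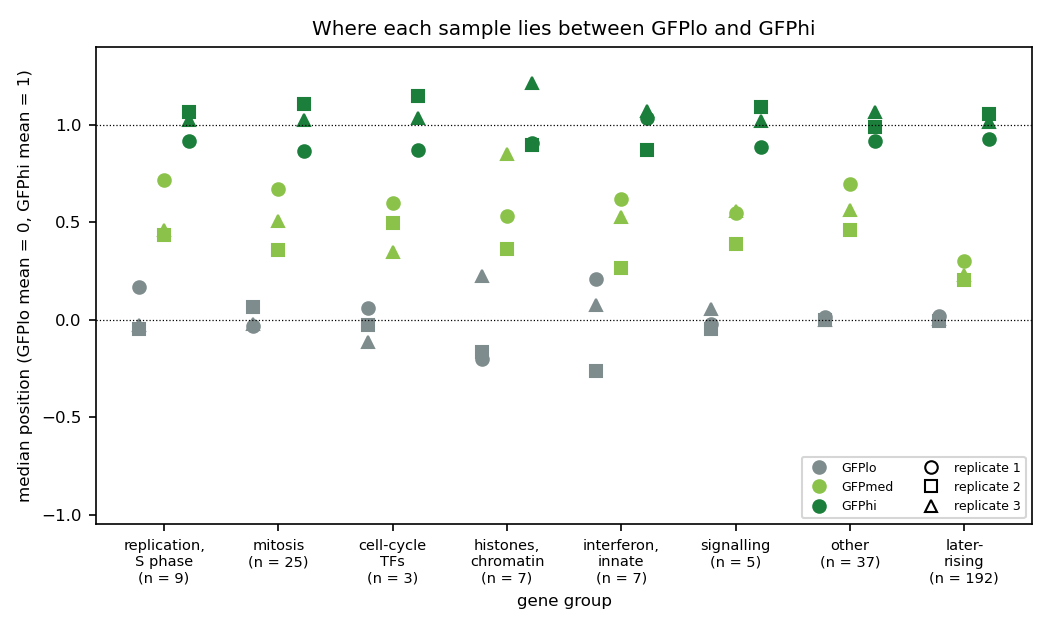
Median position of each sample between the mean of GFPlo (0) and the mean of GFPhi (1) on the log2(TPM + 1) scale (y axis), by role group and for the 192 later-rising genes (x axis). Colours are groups and symbols replicates; GFPmed replicate 1 is the highest GFPmed sample except for histone and signalling genes, and the later-rising genes sit lower, at 0.20 to 0.30.

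How far the early pattern holds in samples not used to choose it was read by applying the rule without the samples of 1 replicate number and then reading the 3 samples left out. Without replicate 1, 141 genes were chosen as early-rising, and their median progress in replicate 1 was 0.63, against 0.34 for the 256 genes chosen as later-rising. Without replicate 2 the values were 0.30 for 179 genes and 0.25 for 182 genes. Without replicate 3 they were 0.40 for 134 genes and 0.26 for 193 genes. These values compare single samples that share a replicate number, and the numbers were not shown to pair the samples. Progress in the samples left out depends on the rise there as well as on the GFPmed step. The median GFPmed minus GFPlo difference of these early-rising genes was 0.40, 0.42 and 0.56 log2 units in replicates 1, 2 and 3, and that of the later-rising genes 0.39, 0.31 and 0.35. The median GFPhi minus GFPlo difference was 0.72, 1.32 and 1.46 log2 units for early-rising and 1.20, 1.5 and 1.52 for later-rising genes. In replicate 1 the GFPmed step was thus about equal in both sets and the rise to GFPhi was smaller in the early-rising one, so its higher progress there does not show an earlier step. In that replicate 100 of the 141 early-rising genes were higher in GFPhi than in GFPlo, and progress has no clear meaning for the others. The corresponding counts were 132 of 179 in replicate 2 and 111 of 134 in replicate 3.

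**Figure D5:**
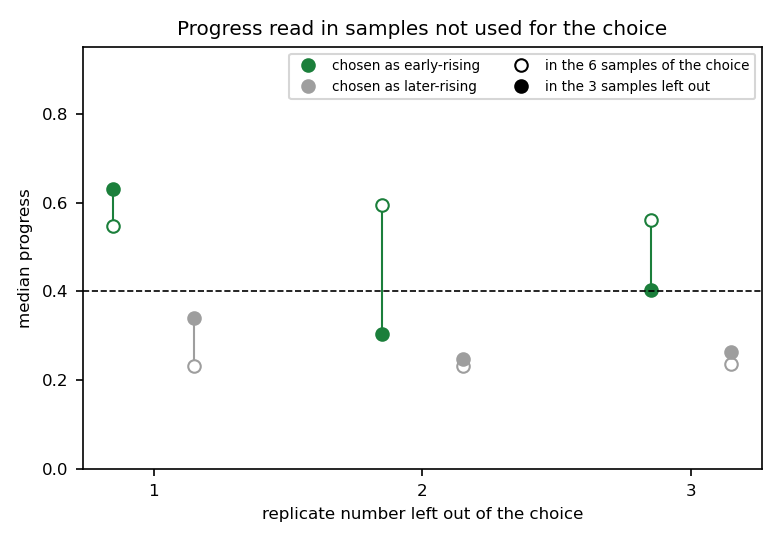
Median progress (y axis) of genes chosen as early-rising (green) or later-rising (grey) without the samples of 1 replicate number (x axis), in the 6 samples used for the choice (open) and in the 3 samples left out (filled). The dashed line is 0.4. In the samples left out, early-rising genes were at 0.63, 0.30 and 0.40. The value for replicate 1 goes with a smaller rise to GFPhi. Filled values compare single samples of the same replicate number, which were not shown to be paired.

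Markers of other cells were read in the same samples. The 6 regulatory T cell markers summed to 88.3 ± 5.72 RPM in GFPlo, 107 ± 4.96 in GFPmed and 461 ± 37.7 in GFPhi (SD, n = 3 each), and 4 of 6 were called higher in GFPhi over GFPlo, although cells with surface CD25 were gated out. In GFPmed these markers were at 0.05 of their linear rise. The early-rising genes together went from 1260 ± 112 to 2160 ± 275 and 3844 ± 208 RPM, with GFPmed at 0.35. The rule chose them for a high share in GFPmed, so their value is not set against that of the markers. The double-positive thymocyte markers ran the other way, at 165 ± 8.34, 134 ± 2.25 and 86.2 ± 18.1 RPM, and 2 of 6 tested were called lower in GFPhi. The 10 macrophage and monocyte markers summed to 35.2 to 56.1 RPM over all samples, the 8 dendritic cell markers to 15.5 to 47.8, the 6 thymic epithelial markers in the table to 7.35 to 23.1, and the 3 erythroid genes in the table to 2.55 to 8.51, with overlapping groups in each case. Epcam of the epithelial list and Hbb-bs of the erythroid list were themselves early-rising. The CD4 single-positive markers, which define the sorted cells, summed to 5457 ± 431, 5368 ± 236 and 4933 ± 126 RPM. The part of any of these populations in the early-rising genes was not tested.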

How the data were processed

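RNA of 9 bulk samples of sorted SP4 thymocytes (3 groups of 3 biological replicates) was sequenced from SMART-seq v4 and Nextera XT libraries, which do not mark strand. The authors trimmed reads with Trim Galore, aligned them with STAR 2.7.11b to GRCm38 (mm10) with GENCODE annotation, removed duplicates, counted reads per gene and deposited TPM values per sample. The table also holds group mean signal, which the authors made by dividing counts by DESeq2 1.34.0 size factors and averaging replicates, and their fold changes and p-values, which were not used. The number of columns of samples outside this series was 0.

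Reads per gene were solved from the TPM values and the deposited group means for 41578 of 41978 genes, with 100% of values whole within 0.02 reads, and totals of 7465552 to 14943774 reads. Depth limits genes with few reads most. Coordinates come from a GENCODE annotation of GRCm38 and promoters from RefSeq GRCm38.p6.

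The 30693 genes that reached 1 TPM in 3 or more samples entered 1 limma fit (limma 3.58.1, R 4.3.3) of log2(TPM + 1) over all 9 samples, with a mean-variance trend and Benjamini-Hochberg adjustment. Calls needed a change of 1 log2 unit or more and an adjusted p no higher than 0.05. Fold changes on this scale understate the change of low genes. The p-values set a group difference against the spread between these replicates, pooled over the 3 groups and moderated by the trend over all genes. The script was tested on simulated data. Lists are described by their counts and medians. Alternatives were other pseudocounts, filters, floors, thresholds, scalings, models, and leaving out samples; limma-voom on the solved reads and the split at 20 reads were chosen after seeing the data.

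The early-rising genes and all lists were chosen with earlier results of these data known. Every early-rising gene is named. Values in every sample are given, in each role group, for the 2 genes with the largest GFPhi minus GFPlo difference, the 2 with the highest progress and the 2 with the highest GFPhi TPM, and of each list up to 3 other genes with the largest difference are named. Mki67, Lmna, Abca1 and Nr4a1 were added after their values were seen.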

Additional observations from a re-analysis of the deposited data

How the results depend on the processing

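The number of early-rising genes depended on the scale and the threshold. It was 93 as reported, 41 on the linear TPM scale, 166 at a progress of 0.3 and 52 at 0.5. Leaving out samples gave 75 to 179 genes, with a median progress of 0.49 to 0.59; it was 166 without GFPlo replicate 1, 141 without replicate 1 of every group and 179 without replicate 2, and 86, 63 and 83 of these were among the 93.

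Leaving out 1 sample gave 252 to 360 genes called higher and 80 to 170 lower in GFPhi over GFPlo, with 40 to 66 early-rising genes among them. In GFPhi over GFPmed it gave 79 to 160 higher, 25 to 59 lower and 0 to 3 early-rising genes, and in GFPmed over GFPlo 2 to 16, 0 to 3 and 0 to 2. Over the lists in GFPhi over GFPlo, genes called higher ran from 13 to 22 in G2/M (1 lower), 3 to 4 in S phase, 7 to 11 in the immediate response (0 to 1 lower), 2 to 4 in the kinetochore network, 2 to 3 in the passenger complex and in the E2F list, 1 to 3 in the PYHIN and Schlafen families, 1 to 2 in the G1/S, guanylate-binding, interferon-stimulated and SKI/SMAD lists, and 0 to 2 in the replisome.

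With median-of-ratios scaling, 70 genes were lower in GFPhi over GFPlo, 5 higher and 0 lower in GFPmed over GFPlo (0 early-rising), 86 higher and 16 lower in GFPhi over GFPmed (0 early-rising), and 1 called in the G1/S and in the SKI/SMAD list. With eBayes without the trend, GFPmed over GFPlo had 8 higher, 0 lower and 0 early-rising genes, and the lists had 1 (G1/S), 2 (replisome) and 1 (Schlafen). With limma-voom, the early-rising genes called were 6 in GFPmed over GFPlo and 15 in GFPhi over GFPmed, where 260 genes were higher and 77 lower, and the lists had 5 (S phase), 2 (replisome), 4 (interferon-stimulated) and 1 (AHR). With only the 2 groups compared, GFPmed over GFPlo had 3 lower and 0 early-rising genes, and the lists had 16 (G2/M), 1 (G1/S), 0 (replisome), 1 (Schlafen) and 1 (guanylate-binding). With a pseudocount of 0.1, 4 genes were lower in GFPmed over GFPlo and 2 called in the replisome. With a TPM of at least 5, the early-rising genes called were 1 in GFPmed over GFPlo and 6 in GFPhi over GFPmed; with no filter 1 in GFPmed over GFPlo, and 1 in the G1/S and Schlafen lists. With quantile normalization there were 0 in GFPmed over GFPlo, 1 in G1/S and 0 lower in the immediate response. The Arnt log2 fold change, GFPhi vs GFPlo, was -0.04 as reported, 0.042 with median-of-ratios scaling and 0.00453 with quantile normalization. The causes were not tested.

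Adding a replicate block left 5 higher and 0 lower calls in GFPmed over GFPlo (1 early-rising), and 1 was called in G1/S and 4 among interferon-stimulated genes. The replicate numbers were neither shown to pair the samples nor shown not to. Of 9 same-numbered pairs, 1 had a correlation over 0.1, and their mean was 0.061 against -0.030 for pairs of other numbers. Of the 9 samples, 6 correlated best with their own number. In the histone and interferon genes, samples of the same number moved together. Of the values of single named genes under these alternatives, 1188 kept their direction and side of the threshold, 94 lost their call, 23 gained one and 2 reversed. Depth limits the 25 early-rising genes with few or unsolved reads.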
